A study of Rattus norvegicus with 11 samples.

Results

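The subject of these measurements is the normal rat adrenal gland, described through the ranking of its transcripts by level and by spread between glands. All 4 normal glands of the series entered, out of 11 arrays. The ranking covered 14506 genes, each represented by its brightest probe set (by the mean of the 4 glands) among the 15310 probe sets that carry a single gene symbol, out of 29214 probe sets in all. The glands came from wild-type rats of the mixed strain labelled Sprague–Dawley white eye/Wistar–Kyoto, kept free of specific pathogens and untreated. They came from a female and a male of 24 months and a female and a male of 12 months, 1 gland per age and sex and each labelled as its own biological replicate. The 7 other arrays, adrenal lesions of rats heterozygous for a mutation of p27Kip1 (Cdknb1 in the labels), were used only where all arrays shared an estimate of the spread. Whole glands were measured, so cortex, medulla, capsule, vessels and blood contributed to each value, and fewer cells of a type cannot be told apart from less RNA per cell. The sources used here do not give the time of day or the handling before tissue removal.

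The adrenal gland joins a pair of endocrine tissues. Its cortex converts cholesterol into steroids in the mitochondria and the endoplasmic reticulum, with aldosterone made in the outer zona glomerulosa and corticosterone in the zona fasciculata of the rat. Its medulla consists mainly of chromaffin cells, which make catecholamines from tyrosine and store them with chromogranins and peptides in dense granules. Adrenocorticotropic hormone drives the cortex through a melanocortin receptor, and splanchnic nerve fibres drive the medulla through nicotinic receptors.

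Values are deposited log2 levels after robust multi-array averaging (RMA), so a difference of 1 is 2-fold. An array level depends on how well its probes bind as well as on the amount of RNA. Ranks therefore order probe sets, not molecules per cell. Of the 527 genes with more than 1 probe set, the highest and lowest probe set of a gene lay a median of 0.58 apart, and in 193 genes (36.6%) at least 2-fold apart. Values of a gene are listed below in the order 24-month female, 24-month male, 12-month female, 12-month male.

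The 12-month male gland stood apart from the other 3. Array correlations over the 14506 genes were 0.990 to 0.993 among the other 3 glands and 0.985 in each pair with the 12-month male. Between 47 and 123 genes lay 2-fold or more apart in pairs without it, and 263 to 280 in pairs with it. It was the gland farthest from the mean of the 4 for 5135 genes (35.4%), against 20.2% to 23.5% for each of the others. In this gland 193 genes deviated by at least 1 from the mean of the other 3, 130 of them lower. The other glands had 35 to 62 such genes. No array duplicated another, and array medians over all probe sets were 4.91 to 4.98.

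The mean levels of the 14506 genes had a median of 5.79, a 95th percentile of 9.56 and a 99th percentile of 11.2. Only 33 genes exceeded 12 and 484 (3.34%) exceeded 10. The highest mean level belonged to Gapdh, a glycolytic enzyme, which read 12.92, 12.69, 12.77 and 13.05. Ribosomal protein genes followed at ranks 2 to 5 (Rpl41, Rpl37l1, Rps29 and Rps28), with B2m, the light chain of major histocompatibility class I, at rank 6, Rps20 at rank 7 and Fth1, the heavy chain of the iron store ferritin, at rank 8. Among the next 12 ranks were 4 genes of adrenal specialisation: the granule protein gene Chgb (rank 10), Star (rank 13), Cyp11a1 (rank 16) and Dbh (rank 18). The remaining ones were Eef1a1, Mt1, Rpl32, Ldha, Rpl31, Rpl27, Rpl5 and Ftl1. Neighbours in this order were mostly not separable. In 17 of 19 neighbouring pairs of the 20 highest genes, the difference in mean was smaller than the larger of their SDs. Gapdh, Rps20 and several other ribosomal genes also have several probe sets and near-identical copies, so their signal cannot be assigned with certainty to the named gene.

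The 100 highest genes were nearly the same in each gland, with 79 of them among the 100 highest in all 4. Rank 100 was Cox4i1 at 11.46 and rank 101 Apoe at 11.45. Their spread was small. The median SD over the 4 glands was 0.117 for these 100 genes, against 0.167 for all 14506, and 42 of the 100 had an SD under 0.1. The most variable of the 100 was Rpph1, the RNA component of ribonuclease P, which read 12.14, 11.47, 12.17 and 12.53 (SD 0.44). No gene belonged to both the 100 of highest level and the 100 of largest SD.

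Genes outside the large families also reached the 100 highest, and are named here after their values were seen. Gnas, the stimulatory G protein subunit that couples the corticotropin receptor to cyclic AMP, read 12.21, 12.31, 12.13 and 12.01 (rank 22). Ucp2, a carrier of the inner mitochondrial membrane, read 11.32, 11.26, 11.58 and 11.88, with both 12-month glands higher. Cd9, a tetraspanin of the cell surface, read 11.75, 11.80, 12.08 and 11.26, with the 12-month male lowest. Atp6v1g1, a subunit of the proton pump that acidifies granules, had a mean of 11.71. Cdkn1b, the gene mutated in the lesion group, read 7.92, 7.90, 7.87 and 7.59 in these wild-type glands and ranked 2977th.

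**Figure D1:**
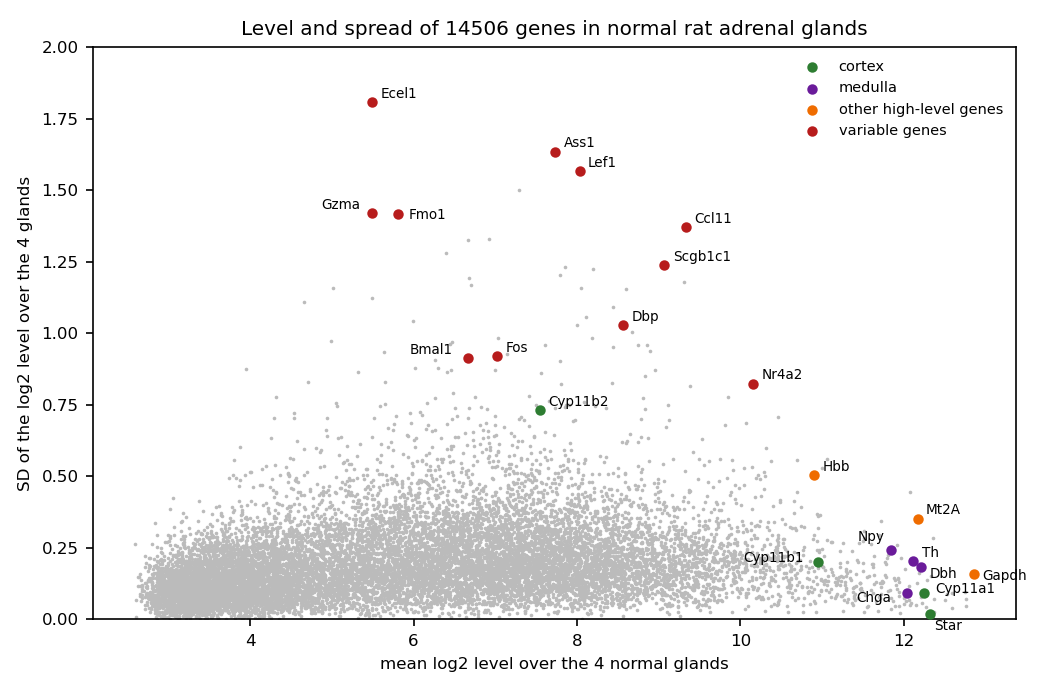
Mean log2 level (x axis) against the SD of the log2 level over the 4 normal glands (y axis), 1 grey point per gene for 14506 genes, with named cortex, medulla, other high-level and variable genes coloured. The genes of highest level lie at the lower right with SDs of at most 0.44, and the genes with an SD of 1 or more lie between mean levels of 4.65 (Fgf7) and 9.34 (Ccl11).

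The cortical markers were near the top of the ranking in every gland. Star, the protein that moves cholesterol to the inner mitochondrial membrane, read 12.31, 12.35, 12.31 and 12.32 (mean 12.32, SD 0.019, n = 4) and ranked 11th to 16th in the single glands. It was among the 20 steadiest genes of the upper level range. Cyp11a1, the side-chain cleavage enzyme that makes pregnenolone, read 12.15, 12.25, 12.37 and 12.23 (SD 0.09, rank 16). The groups by age and by sex overlapped for Cyp11a1, and for Star the sexes differed by 0.02 on average. Fdx1, the ferredoxin that passes electrons to mitochondrial steroid hydroxylases, had a mean of 12.09 and ranked 25th. Akr1b7, an aldose reductase-like enzyme of the cortex, read 11.96, 11.98, 11.98 and 12.08 and ranked 33rd.

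Cyp11b1, the hydroxylase that completes corticosterone, read 10.96, 10.81, 11.23 and 10.80 (mean 10.95, SD 0.20), rank 190. Each female was above each male, with a mean difference of -0.29 (males minus females). Its relatives Cyp11b2 and Cyp11b3 have similar sequences, so cross-binding between their probes cannot be told apart from their own signal. Of the 27 genes on a list of cortical steroidogenesis, 23 were measured, and their median level lay at percentile 97.4, where all genes have theirs at 50. They included 6 of the 100 highest genes: Star, Cyp11a1, Fdx1, Akr1b7, Akr1b8 and Cyp21a1. The low end of the list held Cyp11b3 (3.82) and Hsd3b5 (3.23). These and the enzyme genes Akr1b8 and Cyp21a1 were named after their values were seen. Hsd3b1, Fdxr, Nr5a1 and Srd5a1 were without a single-symbol probe set and are not analysed here.

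The promoter of Cyp11a1 is printed because this gene led the steroid hydroxylases. The run is the 150 bases before the RefSeq start in assembly GRCr8, 5′ to 3′ on the gene's strand, with the letters AGGTCA in capitals, a half-site that nuclear receptors of the steroidogenic factor type bind.
Cyp11a1 promoter, chr8:67318515-67318664, plus strand: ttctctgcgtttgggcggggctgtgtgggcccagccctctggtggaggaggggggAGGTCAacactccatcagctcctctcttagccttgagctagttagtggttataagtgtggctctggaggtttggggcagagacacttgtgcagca
The match begins 95 bases before the start. In windows of 250 bases before the start, read on both strands, AGGTCA or its complement occurred in 11.8% of 12519 promoters of 11951 measured genes. It occurred in 7 of the 13 promoters held for the cortical list (53.8%) and in 20% of the 85 promoters held for the 100 highest genes. The motifs were chosen after matches had been seen, and a match describes letters, not binding.

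Some cortical genes varied more than others. Mrap, which carries the corticotropin receptor to the cell surface, read 10.26, 10.17, 11.20 and 11.15 (SD 0.56). Both 12-month glands were above both 24-month glands, with a mean difference of -0.96 (24 minus 12 months). The receptor itself, Mc2r, named after its values were seen, read 10.27, 10.41, 10.63 and 10.68 (SD 0.20), and its ages also did not overlap. Scarb1, the lipoprotein receptor that takes up cholesterol esters, read 9.84, 9.89, 10.54 and 10.89 and was likewise named after its values were seen. Of the 23 cortical genes measured, 8 read lower in both 24-month glands than in both 12-month glands and 1 read higher. Over all 14506 genes, 13.6% read lower in this way and 14.8% higher. No gene passed the test for age, as given with the fits.

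Cyp11b2, aldosterone synthase, was the only member of the cortical list among the 100 genes of largest SD, with levels of 7.01, 6.88, 7.89 and 8.41 (mean 7.55, SD 0.73). The 12-month glands were above the 24-month glands, and the highest gland was 2.90-fold above the lowest. On a list of zona glomerulosa genes 13 of 14 were measured, with a median at percentile 82.3. The highest were Kcnk9 (10.45), a potassium leak channel, and the orphan receptors Nr4a2 (10.15) and Nr4a1 (10.04). Nr4a2 read 10.06, 9.05, 10.54 and 10.96, and Rgs4, a regulator of G protein signalling, 8.64, 7.83, 9.34 and 8.58. The 24-month male was lowest for both. Inha, the inhibin alpha subunit, read 6.02, 6.14, 6.21 and 7.51, with the 12-month male alone high. Genes of cholesterol synthesis and uptake (18 of 22 measured, median percentile 85.0) were led by Apoe (11.45), Insig1 (10.55) and Npc2 (10.18). In the 12-month male 10 of the 18 were highest, as were 3979 of all 14506 genes. Dhcr7, which closes the synthesis of cholesterol, read 8.90, 9.12, 8.94 and 9.75.

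The medullary markers ranked with those of the cortex. Dbh, which converts dopamine to noradrenaline inside the granule, read 12.34, 12.10, 12.39 and 12.03 (mean 12.21, SD 0.18, rank 18). Th, the rate-limiting tyrosine hydroxylase, read 12.21, 12.08, 12.32 and 11.85 (mean 12.12, SD 0.20, rank 24). For both genes each female was above each male, with the 12-month male lowest, and the mean difference of Th was -0.30 (males minus females). Th ranked 15th in the 12-month female and 45th in the 12-month male. Of 11 catecholamine genes 10 were measured, with a median at percentile 93.2. Cyb561, the electron carrier of the granule membrane, had a mean of 11.19 and Ddc, the decarboxylase that makes dopamine, 10.20.

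The catecholamine list also holds transporters. The vesicular monoamine transporter Slc18a1 read 9.34, 9.40, 9.71 and 8.72 (SD 0.41), with the 12-month male lowest. Slc18a2, the other vesicular transporter, read 6.47, 6.34, 6.41 and 5.72 (SD 0.35). Without the 12-month male the SDs of Slc18a1 and Slc18a2 were 0.20 and 0.07, against 0.12 for Th and 0.16 for Dbh. Slc6a2, which takes noradrenaline back into cells, read 8.79, 8.06, 8.76 and 8.12, with both females above both males. The adrenaline-forming enzyme Pnmt, also without such a probe set, is not analysed here. Of the 10 genes, 7 were lower in both males than in both females, against 19.1% of all genes, and 1 was higher, against 17.1%. In the 12-month male 7 were lowest, as were 4648 of all 14506 genes. Without that gland the female mean deviations of the list were 0.04 and 0.07 and that of the 24-month male was -0.11.

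The promoter of Th is shown because the gene carries the rate-limiting step. It is given in the same way, with capitals for TGACGTCA, the cyclic AMP response element.
Th promoter, chr1:207508219-207508368, minus strand: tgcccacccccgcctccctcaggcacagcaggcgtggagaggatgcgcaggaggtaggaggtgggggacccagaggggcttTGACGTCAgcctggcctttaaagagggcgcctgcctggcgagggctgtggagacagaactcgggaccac
The element begins 69 bases before the start. It occurred in 2.28% of the 12519 promoters and in 4 of the 85 held for the 100 highest genes, to which Th belongs. In the granule list, which does not include Th, 2 of the 22 promoters held had it, and in the cortical list 0 of 13. The catecholamine list was not counted for this motif.

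Granule and neuroendocrine genes made up the longest of the medullary lists. Of 27 genes 25 were measured, with a median at percentile 93.2 and 4 among the 100 highest. Chgb read 12.47, 12.33, 12.31 and 12.35 (mean 12.37, SD 0.07) and Chga 12.13, 12.03, 12.07 and 11.91 (mean 12.03, SD 0.09, rank 30). These chromogranins pack the granule core. Scg2, another granin, had a mean of 11.72, and Resp18, a secretory pathway protein, 11.64. The low end held Stx1a (5.62) and Vgf (5.47), both named after their values were seen. Snap25, a fusion protein of granule release, read 10.56, 10.59, 10.37 and 9.62. The convertase gene Pcsk2 read 7.65, 7.34, 7.44 and 6.62, and Scg3 9.79, 9.37, 9.59 and 8.76. In all 3 genes the 12-month male was lowest, as it was in 19 of the 25 genes of the list. Over all 14506 genes it was lowest in 4648.

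The mean deviation of the 25 granule genes from their own 4-gland means was 0.13, 0.02, 0.12 and -0.27. That of the 23 cortical genes was -0.16, -0.08, 0.05 and 0.19, and that of all genes 0.01, 0.00, 0.02 and -0.03. In the 12-month male, medullary lists lay below and the cortical list above their means. There 13 of the 23 cortical genes were highest, as were 3979 of all 14506 genes. The low side was not particular to medulla. Lists of interferon (-0.25), macrophage (-0.23), lymphocyte (-0.23), red cell (-0.17) and endothelial genes (-0.14) also lay below their means in this gland. Adipocyte (0.19) and cholesterol genes (0.17) lay above. The share of medulla in the tissue taken from each gland was not measured. Its part in these differences was not tested.

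Transcription factors and receptors of the sympathoadrenal lineage (16 of 20 measured) had a median at percentile 81.6. Dlk1, a membrane ligand whose cell of origin whole glands do not show, had a mean of 11.33. Gata3, a lineage factor, read 10.65, 10.60, 10.58 and 10.02. Chrna3, a subunit of the ganglionic nicotinic receptor, had a mean of 9.68, and Hand2 9.22. Tfap2b read 8.94, 8.42, 9.03 and 7.93, Isl1 8.14, 7.98, 8.33 and 7.08, and Chrna5 6.28, 6.27, 6.62 and 5.54. In these 3 genes and in Gata3 the 12-month male was lowest.

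Among 14 neuropeptide genes the levels were uneven, with a median at percentile 28.8. Npy, neuropeptide Y, read 11.88, 11.71, 12.16 and 11.61 (rank 51). Cartpt read 9.71, 10.25, 10.40 and 9.26, and Adm, adrenomedullin, 9.43, 8.77, 9.15 and 8.57. Penk, the enkephalin precursor, had a mean of 7.83, and Gal one of 5.42. Only Npy, Cartpt, Adm and Penk of the 14 were above the median of all genes.

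**Figure D2:**
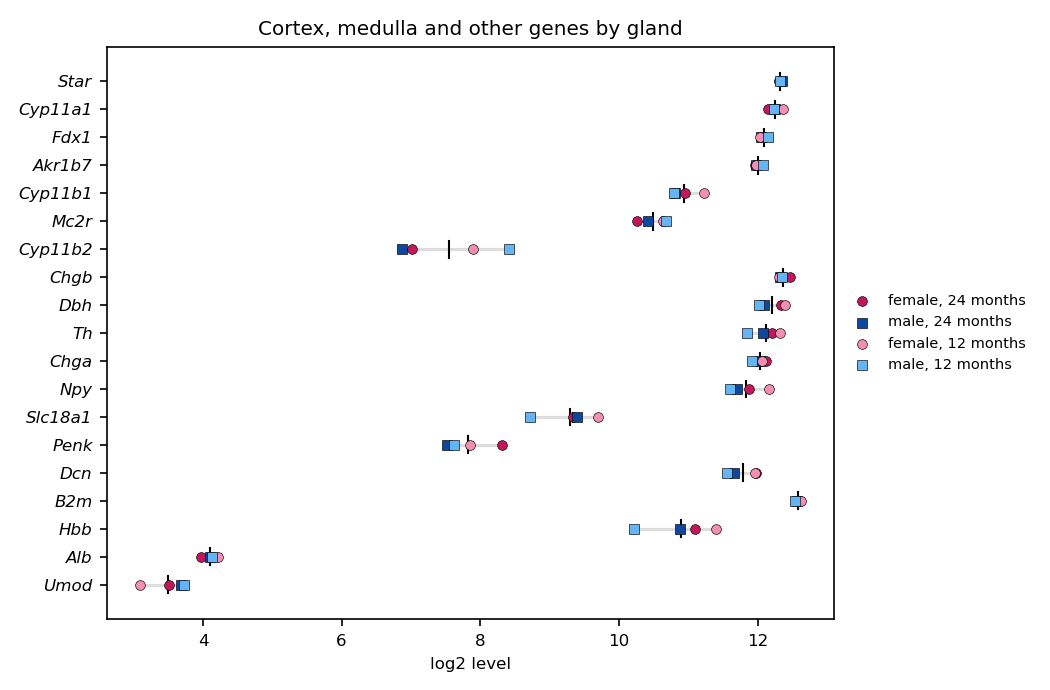
Log2 level (x axis) of 19 genes of cortex, medulla and other sources, 1 symbol per normal gland (circles females, squares males, dark 24 months, light 12 months), with a black tick at the mean and a grey line over the range. Star spans 12.31 to 12.35, Cyp11b2 spans 6.88 to 8.41, and for Dbh and Th both females lie above both males.

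General cell machinery filled most of the top. Of the 73 cytosolic ribosomal protein genes found by symbol, 43 (58.9%) were among the 100 highest, against 0 of 68 mitochondrial ribosomal proteins. A list of 49 measured cytosolic ribosomal proteins had a median at percentile 99.4 and a median SD of 0.102. Rpl15, at 7.29, 7.56, 7.52 and 6.83, was the low exception on it. Translation factors (15 measured, median percentile 96.8) were led by Eef1a1, the elongation factor that brings aminoacyl-tRNA to the ribosome, at 12.39, 12.38, 12.38 and 12.34 (SD 0.024).

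Oxidative phosphorylation genes of the nucleus (35 measured, median percentile 97.6) were led by Ndufa4 (11.94), Cox6c (11.92) and Cox6a1 (11.81). All 35 lay above the median of all genes. Of 16 heat shock and chaperone genes (median percentile 98.1) Hsp90ab1 (12.03), the mitochondrial chaperonin Hspd1 (11.85), Hspa8 (11.80) and Hspe1 (11.47) were highest. Bag3, a co-chaperone, read 9.48, 9.16, 9.89 and 10.72 and had the largest SD of that list (0.68). Cell division genes were at the other end, with 23 measured, a median at percentile 29.8 and Pcna (9.68), a replication clamp also used in repair, as the highest member, followed by Tyms (7.46). Top2a, a marker of dividing cells, read 4.24, 4.51, 4.50 and 3.94.

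Antioxidant and detoxification genes were among the most abundant groups (22 measured, median percentile 98.6). Ferritin and metallothionein genes found by symbol numbered 5, of which 4 were among the 100 highest. Cyp1b1, a cytochrome of steroid and xenobiotic oxidation, had a mean of 12.01, and Sod2, the mitochondrial superoxide dismutase, one of 11.78. Ephx1, an epoxide hydrolase, read 8.18, 8.68, 8.18 and 7.33, with the 12-month male lowest. The metallothioneins Mt1 and Mt2A, small proteins that bind zinc and copper, had the same order of glands. Mt1 read 12.66, 12.47, 12.33 and 11.99, and Mt2A 12.63, 12.22, 12.03 and 11.80. Both were higher in the 24-month glands, and the other probe set of each gene ordered the glands alike (12.37, 12.16, 12.05 and 11.63 for Mt1, 12.20, 11.82, 11.61 and 11.32 for Mt2A).

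Their promoters are shown because the genes varied together at the top of the ranking. Capitals mark the TATA box, TATAAA, and the metal response element, TGCACNC or TGCGCNC, on either strand.
Mt1 promoter, chr19:10832976-10833125, minus strand: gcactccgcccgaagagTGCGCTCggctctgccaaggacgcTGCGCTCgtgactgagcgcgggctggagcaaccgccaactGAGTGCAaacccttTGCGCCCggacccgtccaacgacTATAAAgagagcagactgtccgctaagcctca
Mt2A promoter, chr19:10838709-10838858, minus strand: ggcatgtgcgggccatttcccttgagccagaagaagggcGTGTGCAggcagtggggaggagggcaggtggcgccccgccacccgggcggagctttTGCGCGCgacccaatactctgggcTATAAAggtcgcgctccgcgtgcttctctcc
Mt1 has 4 metal response elements and Mt2A 2 in these windows, and the TATA boxes begin 32 and 31 bases before the start. At least 1 metal response element occurred in 27.0% and TATAAA in 11% of the 12519 promoters. A GC box, GGGCGG, occurred in 47.3% of all promoters, 63.5% of those held for the 100 highest genes and 38% of those held for the 100 genes of largest SD.

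Cells other than steroid and chromaffin cells gave signals at several levels. Fibroblast and matrix genes (14 measured, median percentile 54.7) were led by the proteoglycan Dcn at 11.98, 11.65, 11.96 and 11.56 (rank 56), by Mgp at 11.59, 11.79, 12.05 and 11.35, and by Sparc (11.01), while Col1a1, named after its values were seen, had a mean of 6.16. Endothelial genes (14 measured, median percentile 69.7) were led by the growth factor receptor Kdr (8.78), Emcn (8.50) and Eng (8.47). Of these 14, 8 were lower in both males than in both females, against 19.1% of all genes, and 2 were higher, against 17.1%. Pericyte and smooth muscle genes (10 measured, median percentile 60.1) were led by Rgs5 (9.36), Acta2 (8.80) and Cspg4 (8.19). Tagln, a smooth muscle actin-binding protein, read 7.75, 7.84, 8.57 and 7.78, with the 12-month female alone high.

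Macrophage genes (15 measured) had a median at percentile 75.8. Cd74, the invariant chain of class II molecules, had a mean of 10.78, the lysozyme gene Lyz2 10.61 and the complement gene C1qc 9.67. Cd163, a scavenger receptor of resident macrophages, read 7.11, 6.66, 6.74 and 5.86. Of the 15 genes 9 were highest in the 24-month female and 8 lowest in the 12-month male. Over all 14506 genes these counts were 3372 and 4648. Lymphocyte genes (13 measured) had a median at percentile 39.3 and none in the 100 highest. Cd4 (7.14), which macrophages of the rat also express, and Ptprc (6.68) led, while the T cell receptor partners Cd3e and Cd3g, named after their values were seen, both had means of 4.01.

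Glial genes were led by Pmp22 (9.96) and S100b (7.67), with Sox10, a defining factor of Schwann and sustentacular cells and named after its values were seen, at 5.40. The list (11 measured) had a median at percentile 36.1. Beta-globin signals were high. Hbb read 11.10, 10.88, 11.40 and 10.22 and Hbb-b1, a near-identical copy whose probes may share its RNA, 10.57, 10.09, 10.51 and 9.41, with the 12-month male lowest for both. The other 5 red cell genes measured, led by Alas2 (5.05), were below the median of all genes. Adipocyte genes (13 measured, median percentile 43.7) were led by Lpl (9.42), Fabp4 (8.33) and Car3 (8.0).

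Genes of neighbouring or distant organs were low. All 16 measured genes of liver, kidney and pancreas lay below the median of all genes (median percentile 19.7), with the highest, Serpina1, at 5.60 and the collecting duct channel Aqp2 at 4.90. The kidney gene Umod read 3.51, 3.68, 3.10 and 3.72. All 7 pituitary hormone genes measured were likewise in the lower part, Pomc at 4.83 and Prl at 4.51. Granulocyte and mast cell genes (11 measured) reached at most 4.59, in S100a9. Non-coding RNAs with a symbol were few, and of 4 measured Meg3 (9.56) followed Rpph1. Of the 32 lists 30 had a measured member, and 16 of these had a median above percentile 75.

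**Figure D3:**
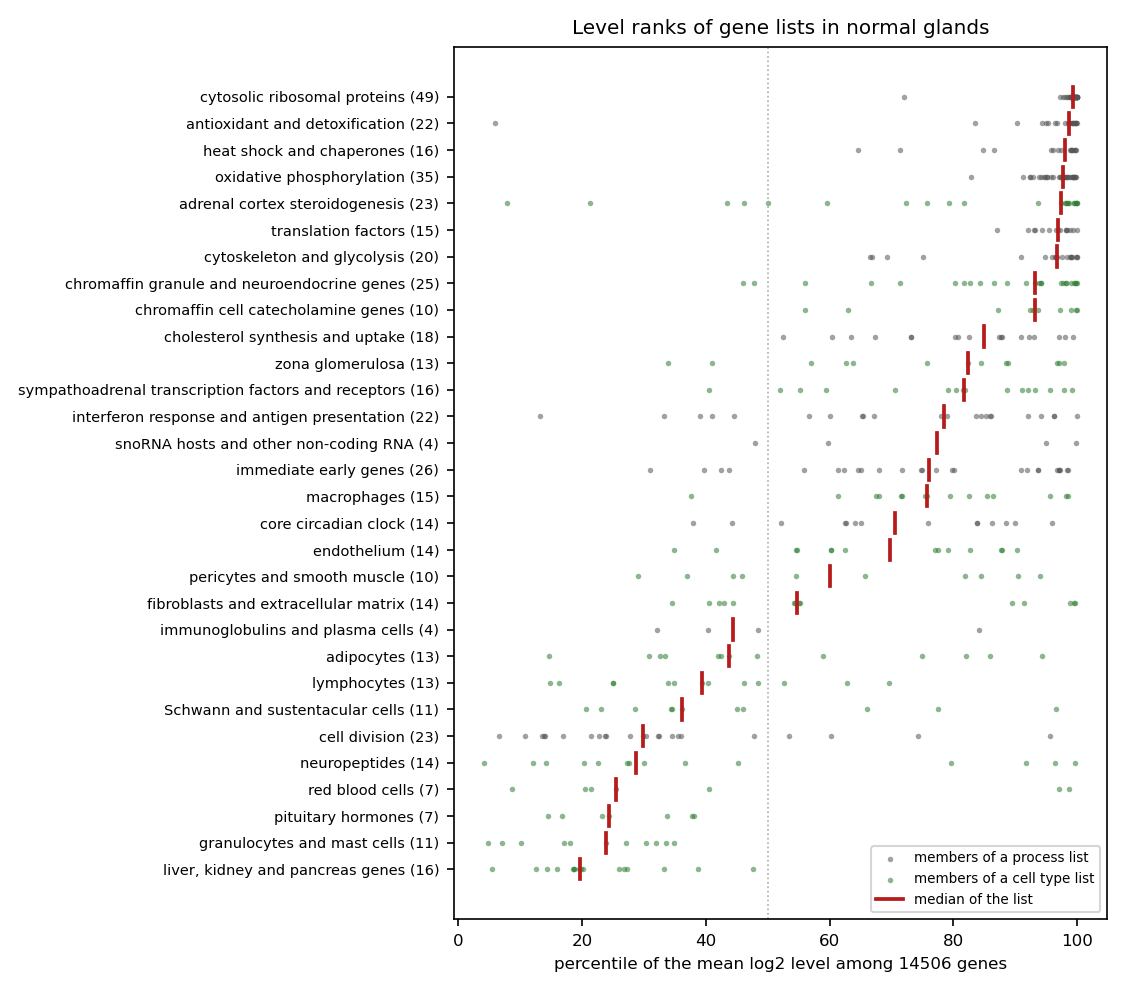
Percentile of the mean log2 level among 14506 genes (x axis) for the members of 30 gene lists, ordered by median, with the number measured in brackets. Points are genes (green for cell type lists, grey for process lists), red bars are list medians and the dotted line is the middle of the ranking. Cortical, catecholamine and granule lists have medians at percentiles 97.4, 93.2 and 93.2, and genes of liver, kidney and pancreas one of 19.7.

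Spread between glands was small for most genes. The SD over the 4 glands had a median of 0.167 and a 95th percentile of 0.422. It reached 0.5 in 386 genes (2.66%) and 1 in 28 genes (0.193%). Median SDs were 0.114 among the dimmest genes (mean levels 2.59 to 4.01), 0.165 and 0.209 in the middle ranges and 0.198 among the brightest (7.5 to 12.86). None of the dimmest range reached an SD of 1, and 15 of the brightest did. The 100 genes of largest SD had a median level of 7.01. Rank 100 by spread was Slc16a7 and rank 101 Naaa, both with an SD of 0.70.

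The 12-month male weighed on this ranking. It was the farthest gland for 58 of the 100 genes and the lowest for 51, while the 12-month female was the highest for 38. Over all 14506 genes these counts were 5135, 4648 and 3437. Without it, 59 of the 100 remained among the 100 of largest SD over the other 3 glands, and 21 genes in place of 28 reached an SD of 1. Of the 20 most variable genes 19 remained among the 100. The exception was Spsb1, an adaptor of protein degradation, whose SD was 1.23 with and 0.51 without that gland.

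Ecel1, a neuronal endopeptidase-like protein, had the largest SD. It read 5.92, 4.16, 7.87 and 4.02 (SD 1.81), 14.4-fold from the lowest to the highest gland. Both females were above both males, and without the 12-month male the SD was 1.86. Ass1, the urea and arginine cycle enzyme that joins citrulline and aspartate, read 6.25, 7.53, 7.10 and 10.05 (SD 1.63). Its spread rested on the 12-month male, without which the SD was 0.65. Lef1, a transcription factor of the Wnt pathway, read 9.10, 7.89, 9.26 and 5.87 (SD 1.57, or 0.75 without the 12-month male).

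Fabp6, a bile acid-binding protein, read 5.27, 8.88, 7.33 and 7.66 (SD 1.5), with the 24-month female lowest. Fmo1, a flavin monooxygenase, read 4.38, 6.69, 4.84 and 7.31 (SD 1.41). Both males were above both females, by 2.39 on average, the smallest unadjusted p of any gene for sex, but its adjusted p in the limma fit was 0.863. Ccl11, the eosinophil chemokine eotaxin, read 9.69, 8.88, 11.01 and 7.76, with both females above both males. Hpx, the haem carrier hemopexin, read 6.09, 7.27, 5.68 and 8.63, with both males higher. A2m, a broad protease inhibitor, read 7.21, 5.39, 7.76 and 5.21, and Mybpc1, a myosin-binding protein, 8.85, 7.03, 8.77 and 6.49. For both genes each female was above each male.

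Others among the 20 most variable genes were ordered by age. Gzma, a protease of cytotoxic lymphocytes, read 7.49, 5.48, 4.38 and 4.59, and Gzmk, a related protease, 8.13, 7.09, 6.14 and 5.45. The 24-month glands were higher in both genes and the 24-month female the highest. Scgb1c1, a secretoglobin, read 10.55, 9.12, 9.08 and 7.52, with the 24-month male and the 12-month female close to each other. Bhlhe41, a repressor of the circadian clock, read 7.23, 8.10, 5.72 and 5.65. Lower in the 24-month glands were the zinc finger gene Zfp347 (6.67, 4.95, 8.17 and 6.87), the splicing factor Cwc25 (8.16, 6.58, 8.50 and 9.54) and the tendon and mesenchymal factor Scx (7.66, 6.63, 9.28 and 8.63). In these 3 genes the 24-month male was lowest. Spsb1 and Nr4a3 were also lower in both 24-month glands. Lgi1 (5.50, 4.94, 6.16 and 3.44) was lower in males, and Vps37b (8.49, 7.36, 8.41 and 10.15) followed neither age nor sex.

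The rest of the 100 most variable genes, named after their values were seen, held further chemokines and enzymes. Ccl5, a chemokine of T cells and monocytes, read 9.77, 9.08, 9.18 and 7.57, and Ccl19, a chemokine of lymphoid tissue, 8.34, 8.32, 8.71 and 6.98. The 12-month male was lowest for both. Ccl2, a monocyte chemokine, read 8.91, 9.30, 8.06 and 7.46, with both 24-month glands higher. Prf1, the perforin of cytotoxic cells, read 7.23, 6.06, 5.25 and 5.51, in the order of Gzma. Sult1a1, a sulfotransferase, read 6.29, 7.75, 6.42 and 8.12, and Fgf7, a growth factor of mesenchymal cells, 3.53, 5.05, 4.01 and 6.02, with both males higher. Idh1, the cytosolic isocitrate dehydrogenase that yields NADPH, read 8.61, 9.13, 7.78 and 9.79, also with both males higher. Igf1, insulin-like growth factor 1, read 8.85, 10.37, 9.71 and 8.61 and followed neither age nor sex. Cdkn1c, a cyclin-dependent kinase inhibitor, read 8.84, 8.51, 9.32 and 7.10, and the matrix gene Fmod 4.24, 4.37, 5.95 and 4.29, with the 12-month female alone high.

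**Figure D4:**
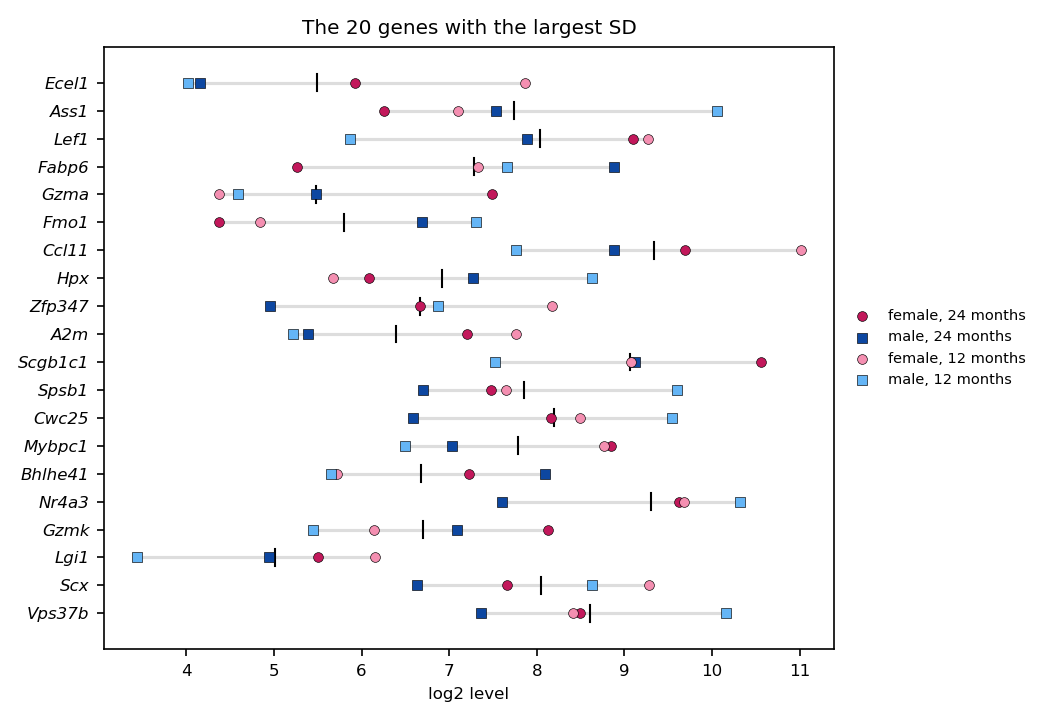
Log2 level (x axis) in each normal gland of the 20 genes with the largest SD, ordered from Ecel1 (SD 1.81) to Vps37b (SD 1.15). Circles are females, squares males, dark symbols 24 months and light symbols 12 months, the black tick is the mean and the grey line the range. In Ass1, Spsb1 and Vps37b the 12-month male lies far to the right of the other 3, and in Lef1 and Lgi1 far to the left.

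Counts over the 100 most variable genes are given beside the same counts over all 14506 genes. Both 24-month glands were above both 12-month glands in 16 of the 100 and in 14.8% of all genes, and below in 24 of the 100 and in 13.6% of all genes. Both males were above both females in 14 of the 100 and in 17.1% of all genes, and below in 32 of the 100 and in 19.1% of all genes. In the remaining 14 neither factor separated the glands, and in 11 of these the 12-month male was farthest from the mean.

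No difference by age or sex passed the test. The limma fit of age and sex together over the 4 glands (adjusted p under 0.05 by Benjamini-Hochberg over 29214 probe sets) called 0 probe sets for age (0%) and 0 for sex (0%). An unadjusted limma p under 0.05 was found in 1194 probe sets for age and in 1605 for sex, where 1460.7 are expected if no probe set differs. Of the 1605, 653 were higher and 952 lower in males. The size of this lean depended on the fit. With the trend and robust options of eBayes 740 were higher and 776 lower. With 1 probe set per gene 300 were higher and 660 lower. Lower ones outnumbered higher ones in each fit that kept all 4 glands, but not in the fit without the 12-month male. That fit leaves 1 male, so its counts are not given. Whether the lean reflects sex or that gland was not tested. The other fits that kept all 4 glands, including 1 in which all 11 arrays shared the estimate of the spread, also called 0. On 29214 probe sets they gave 881 to 1233 for age and 1340 to 1808 for sex at an unadjusted p under 0.05. On the 14607 probe sets above the median level these counts were 602 and 832 (730.35 expected). With 1 probe set per gene they were 652 and 960 (725.3 expected). With 4 glands and 2 factors only 1 residual degree of freedom remained in the limma fit. When tested on simulated data the 4-gland fit made no call, while the fit with all 11 arrays did. The simulated arrays all shared 1 spread per probe set, as the 11-array fit assumes. How much weight the 0 of the 11-array fit carries in the real data was therefore not tested. The count of 0 does not show that levels were alike, and the differences given here describe 4 animals. An exact permutation test of 2 glands against 2 cannot go below p = 0.333 (two-sided).

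Several of the variable genes belong to groups with shared roles. Genes of the circadian clock, a feedback loop that times adrenal function, had the largest median SD of the 30 lists, 0.508 over 14 measured members (0.442 without the 12-month male), against 0.167 over all genes. Of these 14, 5 were among the 100 most variable. Dbp, a clock output factor, read 9.12, 9.73, 7.67 and 7.73, and Nr1d1, the repressor Rev-erb alpha, 10.08, 10.36, 9.19 and 9.38. In these genes, as in Bhlhe41, both 24-month glands were higher. Nfil3, which opposes Dbp at shared sites, read 8.53, 7.47, 9.53 and 9.43, and Bmal1, the activator of the loop and named after its values were seen, 6.13, 5.68, 7.61 and 7.25. In these, both 24-month glands were lower.

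Immediate early genes, which respond within minutes to hormones, nerve input and handling, had a median SD of 0.415 over 26 measured members and 5 of them among the 100 most variable. The highest were Jun, a subunit of the AP-1 factor, at a mean of 10.87, the signalling regulator Rgs2 (10.74), and Fosl2 and Egr1 (10.18 each). Nr4a3 read 9.62, 7.60, 9.68 and 10.32, with the 24-month male lowest. Fos read 6.90, 7.94, 7.44 and 5.80 and Dusp1, a phosphatase that ends kinase signalling, 8.96, 9.29, 9.69 and 7.49. The 12-month male was lowest for Fos and Dusp1 and highest for Nr4a3, so the order of glands differed between members.

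Interferon-responsive genes were uneven in their spread. A list of 22 measured interferon and antigen presentation genes (median percentile 78.5) had a median SD of 0.189, against 0.167 over all genes. Without the 12-month male these were 0.194 and 0.139. On the list, 3 genes were among the 100 most variable (Oasl, Ifit3 and Cxcl10). Of the 22 genes, 10 were lower in both males than in both females, against 19.1% of all genes, and 3 were higher, against 17.1%. The mean deviations of the list were 0.15, -0.08, 0.18 and -0.25. Oasl, an antiviral sensor-family protein, read 8.89, 7.17, 9.14 and 7.22. Ifit3, an interferon-induced RNA-binding protein, read 9.01, 7.94, 8.87 and 6.89. Cxcl10, a chemokine for T cells, read 10.45, 9.49, 10.54 and 8.92. In each of the 3 both females were above both males. Isg15, an interferon-induced ubiquitin-like protein, had a mean of 9.90. B2m and the class II gene RT1-Da varied little, with SDs of 0.04 and 0.11. Of the 15 macrophage genes, 9 were lower in both males, beside the same 19.1% of all genes, and 0 were higher. Their part was not tested.

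The promoter of Ifit3 is shown as the example of that group, with capitals for TTTCNNTTTC, the core of the interferon response element.
Ifit3 promoter, chr1:241527176-241527325, plus strand: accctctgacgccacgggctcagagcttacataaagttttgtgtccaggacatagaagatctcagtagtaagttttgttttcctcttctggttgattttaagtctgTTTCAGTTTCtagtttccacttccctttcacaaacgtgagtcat
The match begins 44 bases before the start. This motif occurred in 3.21% of the 12519 promoters and in 8 of the 17 held for the interferon list (47.1%).

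The lymphocyte genes were uneven. Nkg7, a granule protein of natural killer and T cells, read 7.29, 6.38, 5.08 and 5.21, in the same order of ages as Gzma and Gzmk. The mean deviation of the 13 lymphocyte genes was 0.36 in the 24-month female, 0.05 in the 24-month male, -0.17 in the 12-month female and -0.23 in the 12-month male. Of the 13 genes 7 were highest in the 24-month female, as were 3372 of all 14506 genes. In both 24-month glands 5 read higher, against 14.8% of all genes, and 2 read lower, against 13.6%. T cell genes went both ways. Cd8a, named after its values were seen, read 5.34, 5.15, 4.70 and 4.91. The 2 lower genes were dim, with means of 4.01. Of these, Cd3g read 3.743, 3.926, 4.195 and 4.161. Cd3e read 4.087, 3.764, 4.104 and 4.089, with its ages barely apart. S100a8, a calcium-binding protein of granulocytes, read 4.31, 5.00, 3.43 and 3.06, while its partner S100a9 read 4.4, 4.84, 4.12 and 5.0.

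The adipocyte genes were mixed in their order by age. Car3, the carbonic anhydrase of fat and muscle, read 6.78, 7.61, 9.14 and 8.46, and the adipokine gene Adipoq 4.71, 5.47, 6.49 and 5.94. Fabp4, the fatty acid-binding protein of adipocytes, read 7.65, 8.28, 8.99 and 8.40. All 3 were lowest in the 24-month female and highest in the 12-month female, and the 12-month glands were above the 24-month glands. Of the 13 adipocyte genes measured, 6 read lower in both 24-month glands, against 13.6% of all genes, and 1, Cebpa, read higher, against 14.8%. The other 6, Lpl among them (9.57, 9.21, 9.89 and 9.01), had overlapping ages. The mean deviations of the list were -0.30, -0.13, 0.24 and 0.19. How much fat each tissue piece held was not measured, and its part was not tested.

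**Figure D5:**
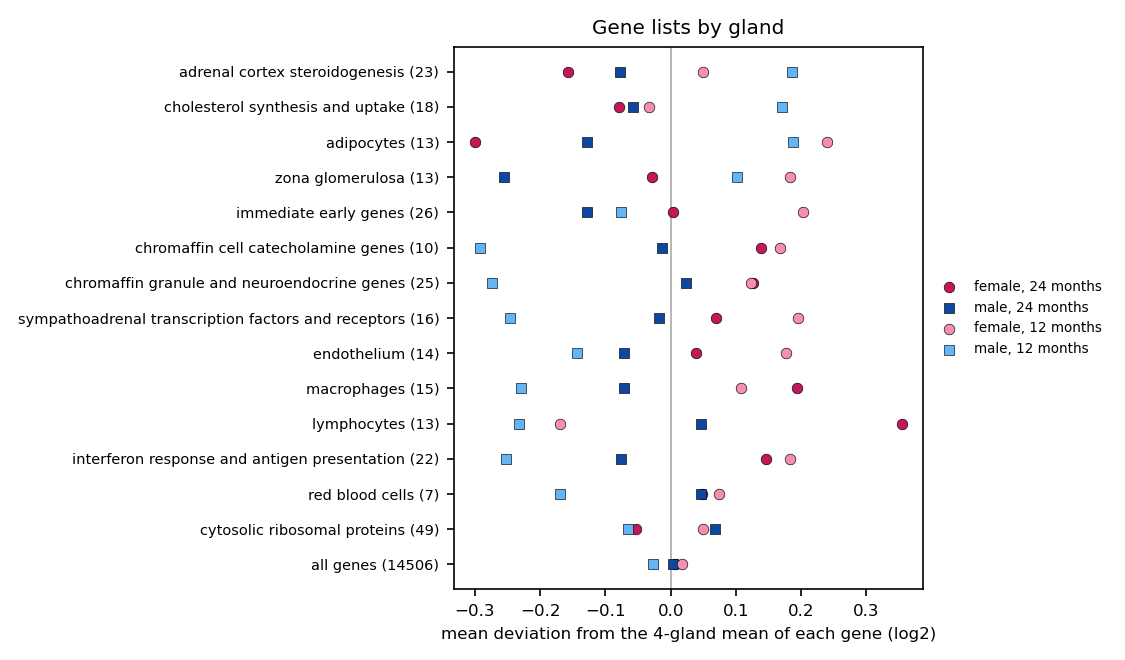
Mean deviation of the members of each gene list from their own 4-gland mean (x axis, log2), 1 symbol per normal gland (circles females, squares males, dark 24 months, light 12 months), with the number of genes in brackets and all genes in the lowest line. The 12-month male lies lowest for the 3 medullary lists (-0.29, -0.27 and -0.25) and highest for the cortical list (0.19), and the 24-month female lies highest for lymphocytes (0.36). The 12-month male also lies lowest for endothelium, macrophages, lymphocytes, interferon genes and red blood cells.

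The steadiest genes gave the other end of the ranking. Among genes of the upper level range, Ppil2, a cyclophilin-like ubiquitin ligase, had an SD of 0.001 at a mean of 8.06, and Spin1, a histone reader, one of 0.011 at 9.26. Star and Eef1a1 were in the same group of 20. These genes were picked by their values. In 13 genes the deposited values were identical in all 4 glands, at levels of 3.02 to 5.49. Such ties are a property of the deposited values and give no measure of biological constancy.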

How the data were processed

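Total RNA from whole adrenal tissue was amplified with the Ovation PicoSL WTA System V2, labelled with biotin and hybridised to one-colour Affymetrix arrays, per the labels' protocols. What the authors deposited are log2 values of each probe set. Per the submitters' processing notes they come from RMA, run in version 1.3.0.187 of Affymetrix Expression Console. This method corrects background, equalises array distributions and summarises probes, so differences in total RNA between glands are removed and dim genes are compressed. No source used here gives the genome build behind the probes. The values (2.10 to 13.5) were used as deposited. Scanner signals were not used, so scan batches and background are not analysed here, and precision is limited by how many arrays there are.

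Symbols came from the platform annotation. Of 29214 probe sets 323 had several symbols and 13581 were unlisted, and 15279 of the 15310 with 1 symbol matched a RefSeq gene of GRCr8, changing 0 symbols. Groups by age and sex followed the labels. Age and sex were fitted together by lmFit and eBayes of limma 3.58.1 in R 4.3.3, two-sided, over the 4 glands. That the labelled replicates are separate animals is assumed, otherwise p-values measure technical spread. Genes were named by rule: 6 markers, the 20 highest and 20 most variable genes, and up to 4 highest and 3 most variable members per list. Members, lists and tests were chosen with earlier results of these data known, and motifs after seeing matches. Promoter sequences are RefSeq's (GRCr8), held for 11951 genes. Mitochondrial and sex-linked lists had 0 measured members. Alternatives covered the probe set rule, mean or median, renewed quantile normalization, filters, other fits and leaving out each gland. Tested on simulated data, the 4-gland fit called no changed probe set. The fit with 11 arrays called a part of them, and also 9 (age) and 6 (sex) unchanged probe sets. Python 3.11.15, pandas 2.3.3 and matplotlib 3.10.9 were used.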

Additional observations from a re-analysis of the deposited data

Results flagged for a closer look

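In 8 of the 199 named genes (4.02%), 1 gland lay far from the other 3 by Dixon's criterion for 4 values, which chance meets in about 1 of 20 groups. Over all 14506 genes 1282 met it (8.84%), with the 12-month male as the distant gland in 507. The 24-month male was distant in Fth1 (12.599, the others 12.451 to 12.475), Star (12.353, the others 12.313 to 12.318) and Actb, the cytoskeletal actin gene (10.858, the others 11.292 to 11.355). For Star and Fth1 the gap is small on the log2 scale, since the other 3 glands were almost equal. The 12-month male was distant in the lineage factor Gata3 (10.023), the replication helicase gene Mcm2 (6.348) and Inha (7.515, the others 6.019 to 6.211). The 12-month female was distant in Tagln (8.574, the others 7.752 to 7.836), and the 24-month female in the liver protease inhibitor Serpina1 (4.752, the others 5.763 to 5.947). With 1 gland per age and sex, a difference of the age effect between the sexes could not be tested.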

How the results depend on the processing

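The ranking by level depended little on the processing: 87 to 100 of the 100 highest genes remained under the alternatives, and 97 to 99 without single glands. The ranking by spread depended on the 12-month male, without which 59 of the 100 most variable genes remained (59 to 84 without single glands, 80 to 98 under the other settings). Genes with an SD of at least 1 numbered 28, and 21 to 41 without single glands. Lists with a median above percentile 75 numbered 15 or 16 in every setting run. Counts of called probe sets were 0 for age and for sex in each fit run, and the lowest adjusted p was 0.0855, for sex with limma on the probe sets above the median level. No paired analysis was possible because the replicate numbers are shared only with lesions, which were not compared, and the age and sex groups share no number. The spread of 4 glands is itself measured loosely, and signal over background was not analysed here.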

Other observations

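Many bright signals have no name in the annotation used here. Of the 10 probe sets with the highest mean in the normal glands 7 were unlisted, 6 of them above Gapdh, with a highest mean of 13.4. In all, 44 unlisted probe sets exceeded 12, beside 33 genes. Among the unlisted probe sets 38 (0.280%) had an SD of at least 1, up to 1.82. Their identity was not analysed here, so the ranking is one of named genes.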
